A study of Mus musculus with 24 samples.

Results

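The genes described here are the SOCS inhibitors Socs1, Socs2, Socs3, Socs5 and Cish, the kinases Jak1 and Jak2, and the transcription factors Stat3, Stat5a and Stat5b. All probe sets that the platform annotation gives to these symbols were taken, which made 21 probe sets for 10 genes, of 22626 probe sets and 12393 genes measured in all. None of the 21 was annotated to a further gene. Signals of the ovary were compared between 6 pools of the mouse line FL1 and 6 pools of the line DUKsi, with 2 arrays per pool. FL1 is an outbred line selected up to generation 130 for an index of the size and the weight of its litters. DUKsi descends from the same crossbred founders, was selected for no trait, and was bred by sib mating for some 36 generations. Neither line carries a transgene or an engineered allele, and no treatment was given. All animals were virgin females of 6 to 9 weeks, killed at metestrus, the phase of the cycle that follows ovulation. Ovarian RNA of 30 females per line was pooled, with 5 females per pool by the methods and 6 by the sample labels.

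JAK kinases sit on the inner end of receptors for growth hormone, prolactin, leptin, interferons and the cytokines of the interleukin 6 group, and are switched on when the ligand binds. They phosphorylate STAT proteins, which then pair, enter the nucleus and bind the promoters of target genes. SOCS genes are among those targets, and their proteins bind the receptors, the kinases or both and end the signal, so that the pathway carries its own brake. In the ovary, signals of prolactin through Jak2 and the Stat5 proteins are known for keeping the corpus luteum of the mouse active.

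STAT proteins bind the letters TTCNNNGAA, where N is any base, a motif that reads the same on both strands. The stretches of the 2 SOCS gene promoters that hold it are printed here, because they are the only ones in which the motif was found among the genes with a promoter window. They are RefSeq sequence of build GRCm38.p6, given 5′ to 3′ on the strand of the gene, with the motif in capitals. The Cish stretch is chr9:107296599-107296688 on the plus strand, and the Socs3 stretch is chr11:117969477-117969566 on the minus strand.
Cish: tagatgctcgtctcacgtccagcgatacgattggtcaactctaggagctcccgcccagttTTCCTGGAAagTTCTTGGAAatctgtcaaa
Socs3: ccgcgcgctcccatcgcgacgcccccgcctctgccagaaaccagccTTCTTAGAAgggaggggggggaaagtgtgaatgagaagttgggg
The search covered 250 bases before and 50 bases after each start site. Windows were at hand for 8 of the 10 genes, all but Socs2 and Socs5. Cish held 2 matches, which start at positions 1 and 12 from the start site, and Socs3 held 1 match, which starts at position -154. The windows of Socs1, Jak1, Jak2, Stat3, Stat5a and Stat5b held none. Of all 32851 promoter windows of this length, 8.30% held at least 1 match and 0.457% held at least 2. A match is a run of letters, not a measured binding site. Stat5b, Stat5a and Stat3 are direct neighbours in the RefSeq gene order, with no other gene starting between them.

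The values are MAS5 signals, which are linear brightness values in arbitrary units scaled by the authors to a common mean on each array. The mean of both arrays stands for a pool, a value after ± is the SD between the 6 pools of that line, and limma tested log2 signals of the 12 pools. A probe set passed at a Benjamini-Hochberg adjusted p under 0.01 over all 22626 probe sets, and fold changes are FL1 over DUKsi on the log2 scale. Levels of different probe sets cannot be set against each other, since each binds with its own strength. Ovarian markers were present, with summed signals of 9 oocyte markers at 6663 to 8938 in FL1 and 8671 to 10746 in DUKsi. Of these 9 markers 1 fell (Zp3), and 8 had lower mean log2 signals in FL1. Of 8 measured luteal markers 5 rose in FL1 (Cyp11a1, Hsd17b7 and Ptgfr, and also Idh1 and Fdx1, which were named after their values were seen), and the summed signal of the list ran from 69014 to 78288 in FL1 and from 36124 to 53311 in DUKsi. Of 8 granulosa markers 2 fell (Inhba and Cdh2), 7 had lower mean log2 signals in FL1, and 1 had a higher one. That marker was Amh, at 0.27, and Fshr lay near 0, at -0.05. Sums of the granulosa markers, of which Inha was the brightest, were 27265 to 33343 in FL1 and 33497 to 38690 in DUKsi. Amh, Fshr and Inha were named after their values were seen. All 9 endothelial markers had higher mean log2 signals in FL1, and 1 rose (Pecam1, which passed in 10 of 26 alternative fits). Their sums ran from 4219 to 4994 in FL1 and from 3508 to 4381 in DUKsi. The 3′ to 5′ ratio of the beta-actin controls, which grows as RNA breaks down, was 1.67 ± 0.423 in FL1 pools and 1.27 ± 0.0522 in DUKsi pools (n = 6, p = 0.00216 by a two-sided exact permutation test, the smallest p of this design). The ratio did not overlap between the lines, with at least 1.322 in FL1 and at most 1.317 in DUKsi pools. A fit with this ratio as a covariate therefore cannot part RNA quality from the line. FL1 pool 3 stood apart, with a ratio of 2.45 and the lowest mean correlation with its own line, 0.947. The part of cell composition and of RNA quality in the results on the 10 genes was not tested, and in whole ovary fewer cells of a type and less RNA per cell cannot be told apart.

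Of the 21 probe sets, 1 fell in FL1, a probe set of Socs2, and 1 rose, a probe set of Stat3. The other 19 did not pass. Over all probe sets, 1.55% fell and 1.83% rose, so that single calls in each direction say little about the family as a whole. None of the 21 met both the test and a fold of 1.5, which 2.32% of all probe sets did. The pools of the lines did not overlap for 2 of the 21, the same probe sets of Socs2 and Stat3, against 4.62% of all probe sets. By their mean log2 signal 17 of the 21, which belong to 10 genes, were lower in FL1 and 4 were higher. Of all 12393 genes, each taken by its brightest probe set, 7299 were lower and 5094 were higher. The 17 of 21 counts probe sets, several for some genes, and cannot be set against this count of genes. By their brightest probe sets Cish, Stat5a and Stat5b were higher in FL1, and the other genes of the 10 were lower. These counts were not tested. The median log2 fold change of the 21 was -0.15, and that of all probe sets was -0.07. The median signal of a pool was 221 ± 7.98 in FL1 and 235 ± 4.95 in DUKsi (n = 6, p = 0.0108 by the exact permutation test). With arrays scaled to the same median, Socs5 1423349_at, Jak1 1433803_at, Jak2 1421066_at and Stat3 1424272_at were higher in FL1. The count of lower probe sets therefore depends on the scaling.

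**Figure D1:**
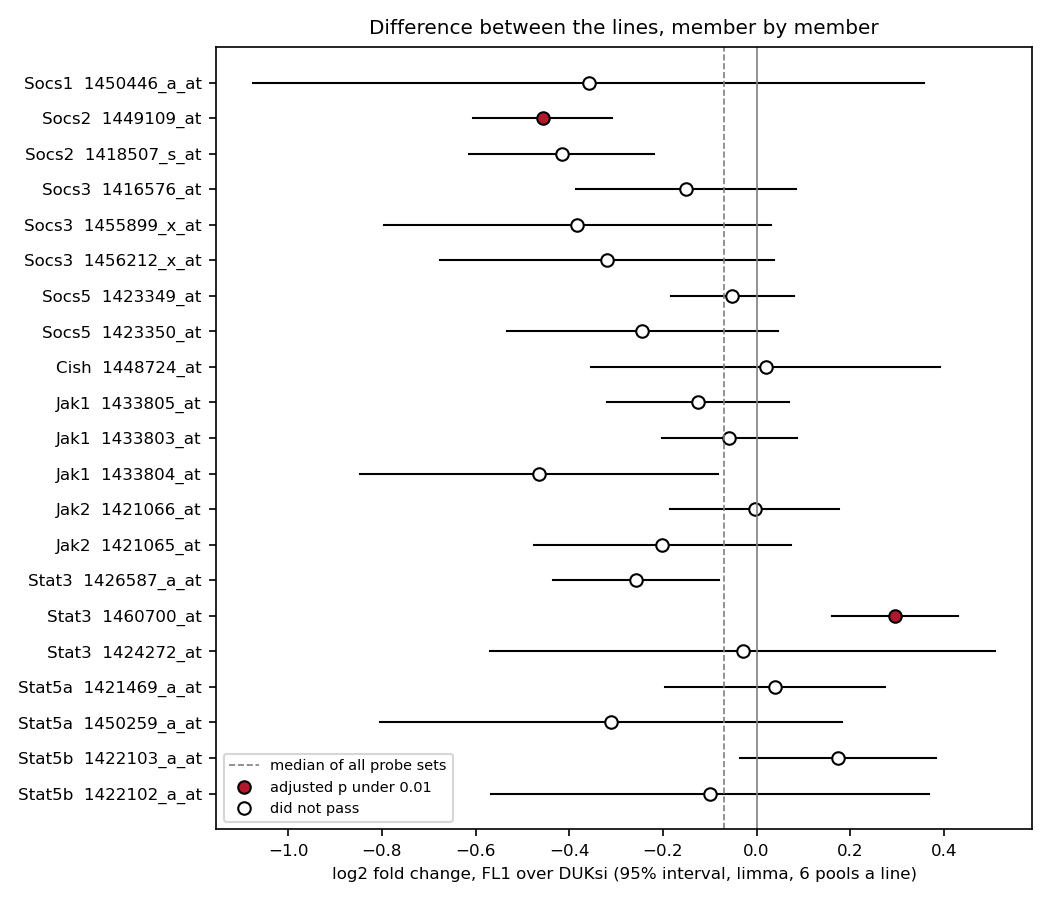
Log2 fold change of FL1 over DUKsi for each of the 21 probe sets (points) with its 95% interval from limma (bars), 6 pools per line. Filled points passed at an adjusted p under 0.01, and the dashed line marks the median of all probe sets, -0.07. Only Socs2 1449109_at, at -0.46, and Stat3 1460700_at, at 0.30, are filled.

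Socs2 encodes the inhibitor that restrains growth hormone signals, and mice without it grow large. Probe set 1449109_at had signals from 3774 to 4887 in FL1 pools, with a median of 4141, and from 5227 to 6193 in DUKsi pools, with a median of 5743. Every FL1 pool lay below every DUKsi pool. The means were 4224 ± 401 in FL1 and 5787 ± 372 in DUKsi pools (n = 6), which put FL1 at 73.0% of the DUKsi level. The log2 fold change was -0.46 (SE 0.0696, limma, adjusted p = 0.000593). Taken by one array of each pool, it was -0.58 on the first arrays (adjusted p = 0.000994) and -0.33 on the second arrays, where it did not pass (adjusted p = 0.0274). It passed with each single pool left out in turn, with adjusted p-values from 0.000209 to 0.00220. With the actin ratio, which itself separates the lines, as a covariate the fold change was -0.39 and passed (adjusted p = 0.00546 from limma).

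The second Socs2 probe set, 1418507_s_at, moved to the same side without passing. Its signals ran from 2795 to 4147 in FL1, with a median of 3139, and from 4044 to 5091 in DUKsi, with a median of 4271. The lines overlapped through FL1 pool 3 alone, whose 4147 stood above the 3 lowest DUKsi pools, at 4044, 4056 and 4111. The means were 3312 ± 504 in FL1 and 4395 ± 415 in DUKsi pools (n = 6), which is -0.42 on the log2 scale (SE 0.0932, adjusted p = 0.0116 from limma). Without FL1 pool 3 it passed, at -0.48 (adjusted p = 0.00136). It also passed with the actin ratio as a covariate, at -0.56 (adjusted p = 0.00159 from limma). With quantile normalization it passed at -0.48 (adjusted p = 0.00689 from limma). It did not pass on the first or the second arrays alone (adjusted p = 0.0379 and 0.0706 from limma). FL1 pool 3 was the lowest pool of its line on 1449109_at and the highest on 1418507_s_at. The same held for DUKsi pool 6 in its line, at 5227 on 1449109_at and 5091 on 1418507_s_at. The signal of 1449109_at over that of 1418507_s_at averaged 1.30 ± 0.25 in FL1 and 1.33 ± 0.17 in DUKsi pools (n = 6), so that the lines overlapped in this ratio.

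**Figure D2:**
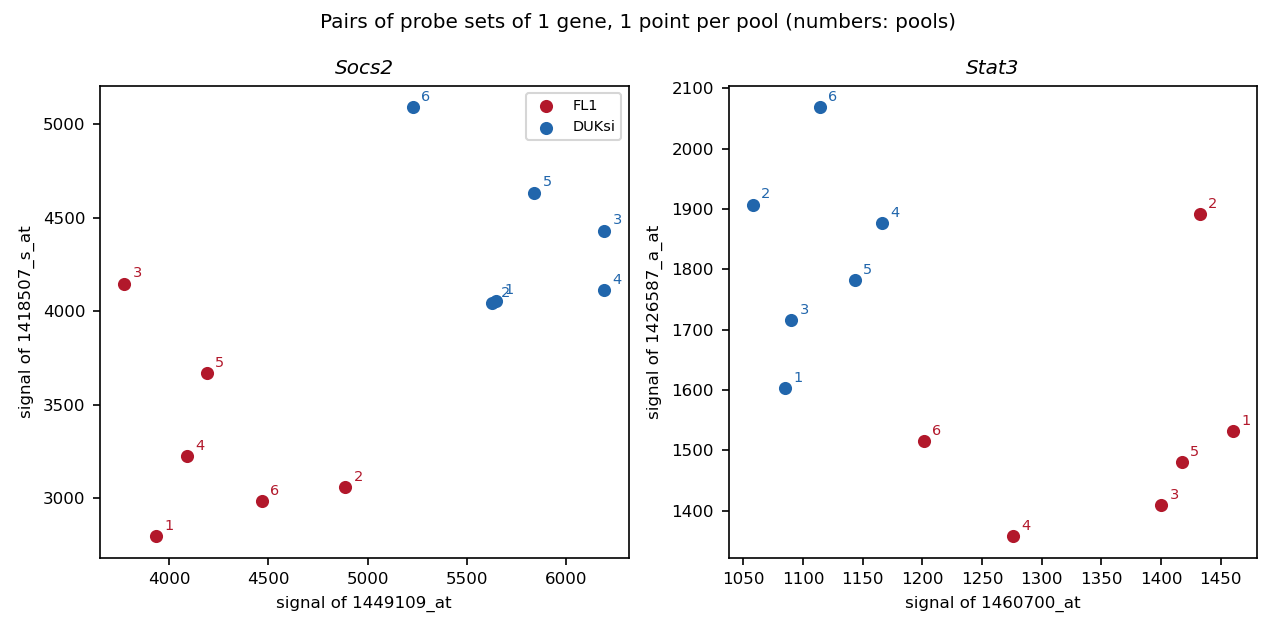
Signals of a pair of probe sets of Socs2 (left panel) and of Stat3 (right panel), linear MAS5 units on both axes, with 1 point per pool and the pool number beside it, FL1 in red and DUKsi in blue. For Socs2 the FL1 pools lie low on both axes apart from pool 3, at 4147 on the vertical axis, and for Stat3 the FL1 pools lie to the right of all DUKsi pools and mostly below them.

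The probe sets whose signals followed Socs2 1449109_at most closely within the lines were sought among the 10417 probe sets of 1 gene in the brighter part of the array, after the mean of each line had been taken off. The 5 closest were Pgd (Pearson r = 0.903 over 12 pools), Ift57 (0.897), Impact (0.892), Zmynd11 (0.890) and Rwdd4a (0.890). These are descriptions, picked as the highest of 10417 values, over pools that differ in RNA quality, with actin ratios from 1.18 to 2.45. How high the highest of so many values runs by chance was not tested. The second Socs2 probe set was not among the candidates. For 1449109_at the SD between arrays of a pool, 0.15 on the log2 scale, exceeded that between pools of a line, 0.12. None of the 5 passed the test between the lines.

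The other SOCS genes gave no call. Socs3, the brake on receptors that use the chain gp130, was measured by 3 probe sets, and all had lower mean log2 signals in FL1. Probe set 1416576_at ran from 421 to 577 in FL1, with a median of 483, and from 448 to 731 in DUKsi, with a median of 533. Its log2 fold change was -0.15 (95% interval -0.39 to 0.08), and it came to -0.06 without DUKsi pool 4, the pool at 731. The probe sets 1455899_x_at and 1456212_x_at, of a design that may bind related transcripts, stood at -0.38 (-0.80 to 0.03) and -0.32 (-0.68 to 0.04). Their intervals reach past a 1.5-fold decrease, whereas that of 1416576_at leaves out a change of 1.5-fold in either direction.

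Socs5, linked to signals of the epidermal growth factor receptor, had the narrowest interval of the 21 probe sets. Its probe set 1423349_at averaged 883 ± 27.9 in FL1 and 917 ± 58.0 in DUKsi pools (n = 6), a log2 fold change of -0.05 (-0.18 to 0.08). The second, 1423350_at, had 124 to 193 in FL1, with a median of 154, and 161 to 231 in DUKsi, with a median of 177, a log2 fold change of -0.24 (-0.53 to 0.04). Socs1, the inhibitor of interferon signals, was dim and variable. Its only probe set, 1450446_a_at, had 24.3 to 137 in FL1, with a median of 78.7, and 63.3 to 133 in DUKsi, with a median of 87.9. The log2 fold change of -0.36 had an interval of -1.07 to 0.36, and it was 0.27 on the first arrays alone.

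Cish, whose protein binds receptors that recruit Stat5 and whose promoter stretch is printed above, showed no difference that these pools could resolve. Probe set 1448724_at had 436 to 899 in FL1, with a median of 739, and 531 to 930 in DUKsi, with a median of 657. The pools of both lines spread over much the same range. The log2 fold change was 0.02, with an interval of -0.35 to 0.39, which leaves room for a moderate change in either direction. The spread between pools was wider than that between the arrays of a pool, with an SD of 0.36 between pools of a line and 0.20 between arrays on the log2 scale. For Socs2 1449109_at the same SDs were 0.12 between pools and 0.15 between arrays.

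**Figure D3:**
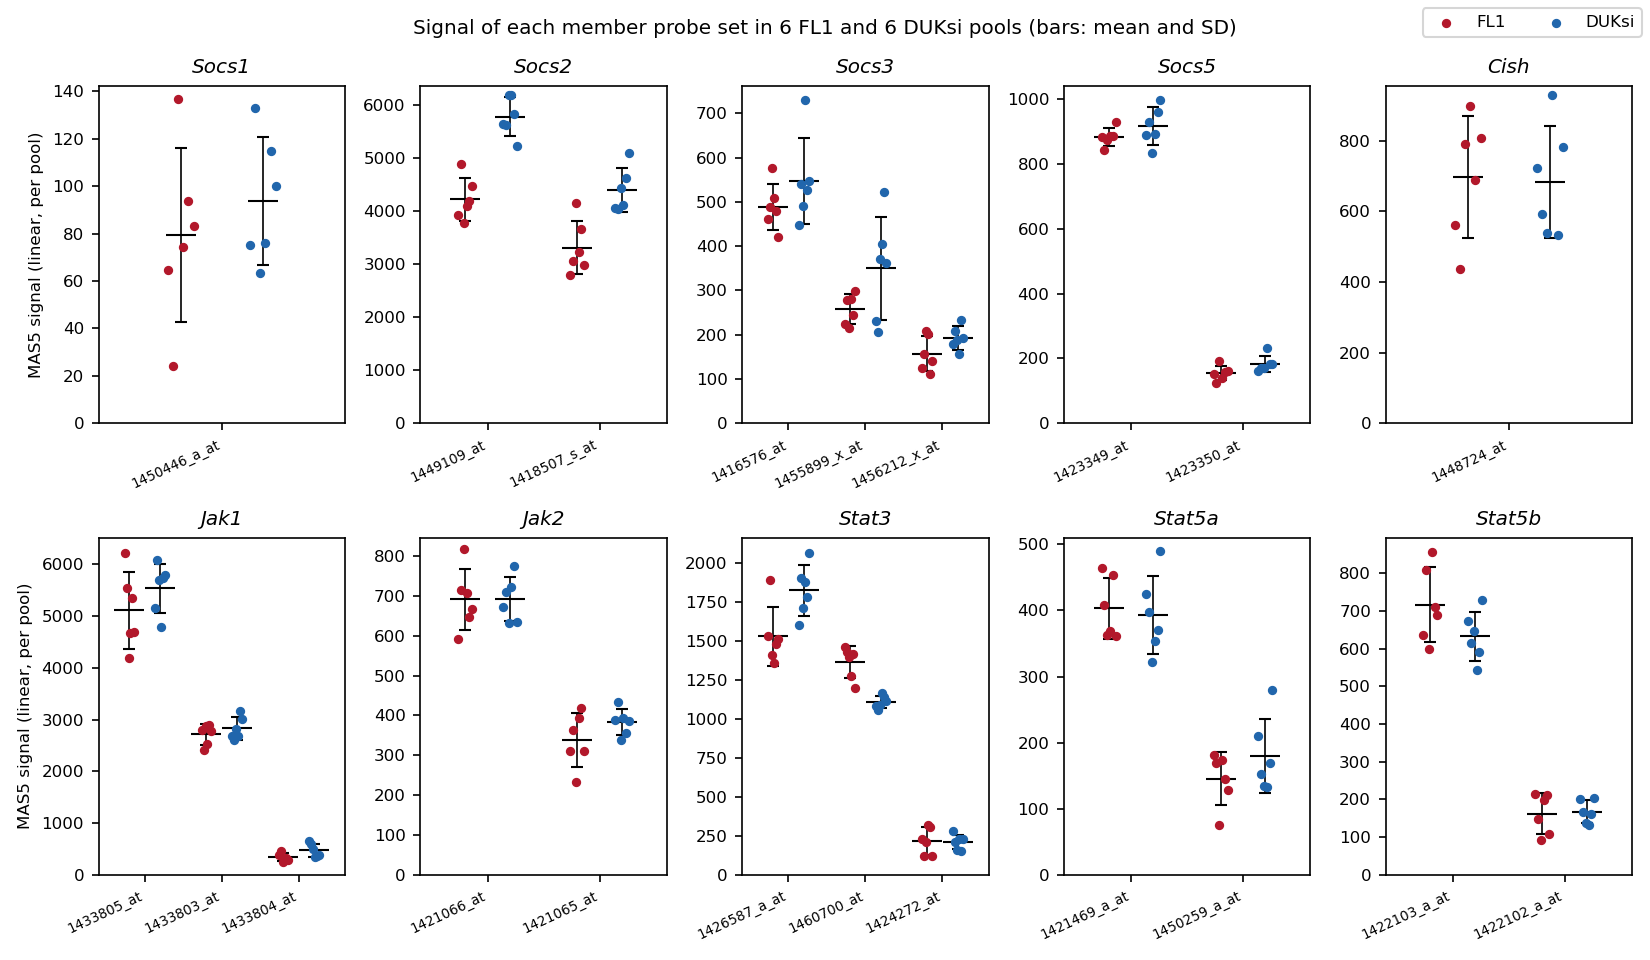
MAS5 signal (linear, vertical axis from 0) of every probe set of the 10 genes in each pool, FL1 in red to the left of DUKsi in blue, with bars for the mean and SD of 6 pools. The lines separate on Socs2 1449109_at, with all FL1 pools at or below 4887 and all DUKsi pools at or above 5227, and on Stat3 1460700_at, and overlap on all other probe sets.

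The kinases did not pass on any of their probe sets. Jak2, which serves the receptors of growth hormone and prolactin, had 592 to 817 in FL1, with a median of 688, and 633 to 775 in DUKsi, with a median of 691, on probe set 1421066_at. The means of 691 ± 76.3 in FL1 and 691 ± 55.6 in DUKsi pools (n = 6) gave a log2 fold change of -0.00, with an interval of -0.18 to 0.18. On 1421065_at it was -0.20 (-0.48 to 0.07), and FL1 pool 3 was the lowest pool, at 234. Jak1, which serves interferon and gp130 receptors, had log2 fold changes of -0.06 (-0.20 to 0.09) on 1433803_at and -0.12 (-0.32 to 0.07) on 1433805_at. For these the interval leaves out a change of 1.5-fold in either direction.

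The remaining Jak1 probe set, 1433804_at, had the lowest log2 fold change of the 21, -0.46 (SE 0.180, limma, adjusted p = 0.153). Its signals ran from 255 to 464 in FL1, with a median of 316, and from 342 to 652 in DUKsi, with a median of 436. The lines overlapped, and DUKsi pools 1, 2 and 3, at 652, 598 and 497, made up the high side. FL1 pool 3, with the highest actin ratio, was the lowest pool at 255. With the actin ratio as a covariate 1433804_at was at -0.22 (adjusted p = 0.476 from limma). Its interval in the main fit, -0.85 to -0.08, overlaps those of the other probe sets of Jak1.

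Stat3, the transcription factor of the interleukin 6 group and of leptin, was the gene whose probe sets went apart. Probe set 1460700_at rose in FL1. Its signals ran from 1201 to 1460 in FL1, with a median of 1409, and from 1058 to 1166 in DUKsi, with a median of 1102. All FL1 pools stood above all DUKsi pools. The means were 1364.5 ± 102 in FL1 and 1109 ± 39.98 in DUKsi pools (n = 6), a ratio of 1.23, with a log2 fold change of 0.30 (SE 0.0634, limma, adjusted p = 0.00862). Close to the threshold, the call was kept without FL1 pool 6 (adjusted p = 0.00458) and lost without any other single pool (adjusted p from 0.0112 to 0.0249). It was also lost on the second arrays alone, at 0.22 (adjusted p = 0.173), and with the actin ratio as a covariate, at 0.32 (adjusted p = 0.0120). With quantile normalization the call was lost too.

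Probe set 1426587_a_at of Stat3 leaned the other way and did not pass. It ran from 1358 to 1891 in FL1, with a median of 1498, and from 1603 to 2068 in DUKsi, with a median of 1829. FL1 pool 2, at 1891, lay among the DUKsi pools, and the other 5 FL1 pools lay below all of them. The log2 fold change was -0.26 (SE 0.0834, limma, adjusted p = 0.0819), and without FL1 pool 2 it was -0.32 (adjusted p = 0.0141). The interval, -0.44 to -0.08, does not meet that of 1460700_at, 0.16 to 0.43. The third probe set, 1424272_at, had a log2 fold change of -0.03 (-0.57 to 0.51), with SDs of 0.59 between arrays of a pool and 0.51 between pools, and its mean linear signals, 217 ± 87.8 in FL1 and 210.1 ± 47.8 in DUKsi pools (n = 6), differed in the other direction.

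Within each pool, the signal of 1426587_a_at over that of 1460700_at was 1.12 ± 0.13 in FL1, from 1.01 to 1.32, and 1.65 ± 0.15 in DUKsi, from 1.48 to 1.86 (n = 6). The lines did not overlap. All 14 such pairs of probe sets of one gene were looked at, and this was the only one whose ratio separated the lines. It is given as a description, since it was picked for its size. A ratio of this kind shows that the probe sets changed unequally. The letter a in 1426587_a_at marks a probe set that covers several transcripts of the gene, and which transcripts each probe set covers was not analysed here. Whether the lines differ by a base under a probe was not tested either.

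Stat5a and Stat5b, the neighbouring genes for the transcription factors of growth hormone and prolactin, gave no call on 4 probe sets. Stat5a had log2 fold changes of 0.04 (-0.19 to 0.28) on 1421469_a_at and -0.31 (-0.80 to 0.18) on 1450259_a_at. On 1450259_a_at FL1 pool 3 was the lowest pool, at 75.1. Stat5b 1422103_a_at averaged 717 ± 99.1 in FL1 and 633 ± 64.6 in DUKsi pools (n = 6), with a log2 fold change of 0.17 (-0.04 to 0.38). Stat5b 1422102_a_at was at -0.10 (-0.57 to 0.37), and FL1 pool 3 was again the lowest, at 91.7. Over the 21 probe sets FL1 pool 3 was the lowest pool of its line 8 times and the highest 6 times, and DUKsi pool 4 was the lowest of its line 6 times and the highest 4 times.

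Around the 10 genes, 99 of 114 genes on 8 lists of the pathway were measured, each by its brightest probe set, of which 8 rose and 2 fell. Over all genes taken in this way 2.08% rose and 1.65% fell. The lists were described by counts and medians only, and the median over all genes was -0.05. Of 8 other genes of the JAK, STAT and SOCS families none passed. Stat6 stood at 755 ± 61.0 in FL1 and 744 ± 54.7 in DUKsi, and Tyk2 at 527 ± 24.8 in FL1 and 529 ± 56.3 in DUKsi pools (n = 6).

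Of 20 measured receptors 1 rose, Lifr, and the median was 0.11. Prlr, the gene of the prolactin receptor, had no probe set of its own and is not among the 20. Lifr encodes the receptor of leukemia inhibitory factor, which signals with gp130 through Jak1 to Stat3. Its signals ran from 699.6 to 1057 in FL1 and from 355 to 557 in DUKsi without overlap, a log2 fold change of 1.05 (SE 0.118, limma, adjusted p = 3.27e-05). Of 17 ligands none passed, with a median of -0.16, and Ctf1 and Clcf1, cytokines of the same receptor group, had -0.16 and -0.21. Ovarian signals of pituitary ligands say nothing about their level in blood.

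Of 12 other inhibitors of the pathway none passed, and the median was -0.07. The fold change of largest size was that of Ptprc, named after its values were seen, a phosphatase gene that is also a marker of all leukocytes, with 469 ± 126 in FL1 and 289 ± 64.5 in DUKsi pools (n = 6), or 0.69 on the log2 scale (adjusted p = 0.024 from limma). The phosphatase genes Ptpn11 and Ptpn2 were at 0.17 (adjusted p = 0.0773 from limma) and -0.42 (adjusted p = 0.177). SOCS proteins carry their targets to a ubiquitin ligase, and of 5 partners in that complex none passed. Elongin genes Eloc and Elob, which bind the SOCS box, were at -0.02 and 0.09.

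Of 15 target genes of Stat3, 1 rose and 1 fell. Cebpb, a transcription factor of the ovulatory follicle, fell to 696 ± 93.4 in FL1, against 1111 ± 159 in DUKsi pools (n = 6), a log2 fold change of -0.67 (SE 0.104, limma, adjusted p = 0.000672). Timp1, an inhibitor of matrix proteases, rose to 1032 ± 292 in FL1, against 635 ± 53.1 in DUKsi, or 0.66 on the log2 scale (SE 0.141, adjusted p = 0.00839 from limma). The call of Timp1 was kept without FL1 pool 2 or FL1 pool 5 and lost without any other single pool (adjusted p from 0.0114 to 0.0245). The other 13 did not pass, and the median of the list was -0.04.

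Of 11 target genes of the Stat5 proteins, 1 rose and 1 fell, with a median of -0.23. The list was not split by whether Stat5 proteins raise or lower a gene. Its fold change of largest size was that of Akr1c18, named after its values were seen. It did not pass, at 1.82 on the log2 scale (adjusted p = 0.244 from limma), with 536 ± 431 in FL1 and 194 ± 287 in DUKsi pools. Hsd17b7, an enzyme of the corpus luteum that is also on the luteal list, rose to 4541 ± 716 in FL1, against 1401 ± 584 in DUKsi pools (n = 6), a log2 fold change of 1.78 (SE 0.209, limma, adjusted p = 4.99e-05). Ccnd2, the cyclin of dividing granulosa cells, fell to 2398 ± 422 in FL1, against 3996 ± 575 in DUKsi, or -0.74 on the log2 scale (SE 0.114, adjusted p = 0.000639 from limma). The summed luteal markers were higher in FL1 and the summed granulosa markers lower, without overlap in both cases, and their part in these values was not tested.

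Of 11 measured genes that interferons induce, 5 rose and none fell, and the median was 0.72. Tap1, a peptide transporter, rose by 1.14 on the log2 scale (SE 0.130, limma, adjusted p = 3.54e-05), Psmb9, an immunoproteasome subunit, by 0.97 (SE 0.134, adjusted p = 0.00025), and the chemokine gene Cxcl10 by 1.82 (SE 0.297, adjusted p = 0.00104). Gbp2 and Psmb8, named after their values were seen, rose by 0.97 and 0.72. Of 9 lymphocyte markers and of 9 macrophage markers none passed, and 5 of the lymphocyte markers and 7 of the macrophage markers had higher mean log2 signals in FL1. Summed lymphocyte markers ran from 875 to 1272 in FL1 and from 904 to 1220 in DUKsi, and summed macrophage markers from 5879 to 7285 in FL1 and from 4837 to 7040 in DUKsi. Some single markers lay further apart than these sums, of which Nkg7, Cd3d and Adgre1 were named after their values were seen. Nkg7, of cytotoxic lymphocytes, had 148 ± 41.1 in FL1 and 75.1 ± 28.5 in DUKsi pools (n = 6), or 1.04 on the log2 scale (adjusted p = 0.0295 from limma). Cd3d, of T cells, was at 1.20 (adjusted p = 0.103 from limma) but dim. Other T cell markers of the list, also named after their values were seen, lay near 0. Cd3e was at 0.06, Cd4 at -0.11 and Cd8a at 0.03. The B cell gene Ighm, the brightest of the lymphocyte list, was at -0.28 (adjusted p = 0.277 from limma). Adgre1, of macrophages, had 733 ± 130 in FL1 and 488 ± 117 in DUKsi pools, or 0.60 on the log2 scale (adjusted p = 0.0304 from limma), and Csf1r was at 0.35 (adjusted p = 0.0945 from limma). Lyz2, the brightest of the macrophage list, was at 0.09. Cd68, Cd14 and Fcgr1, also named after their values were seen, were at 0.11, -0.05 and -0.04. The part of leukocytes in the values of the interferon-induced genes was not tested. Socs1 and Jak1, members of the same interferon pathway, did not pass, as given above.

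**Figure D4:**
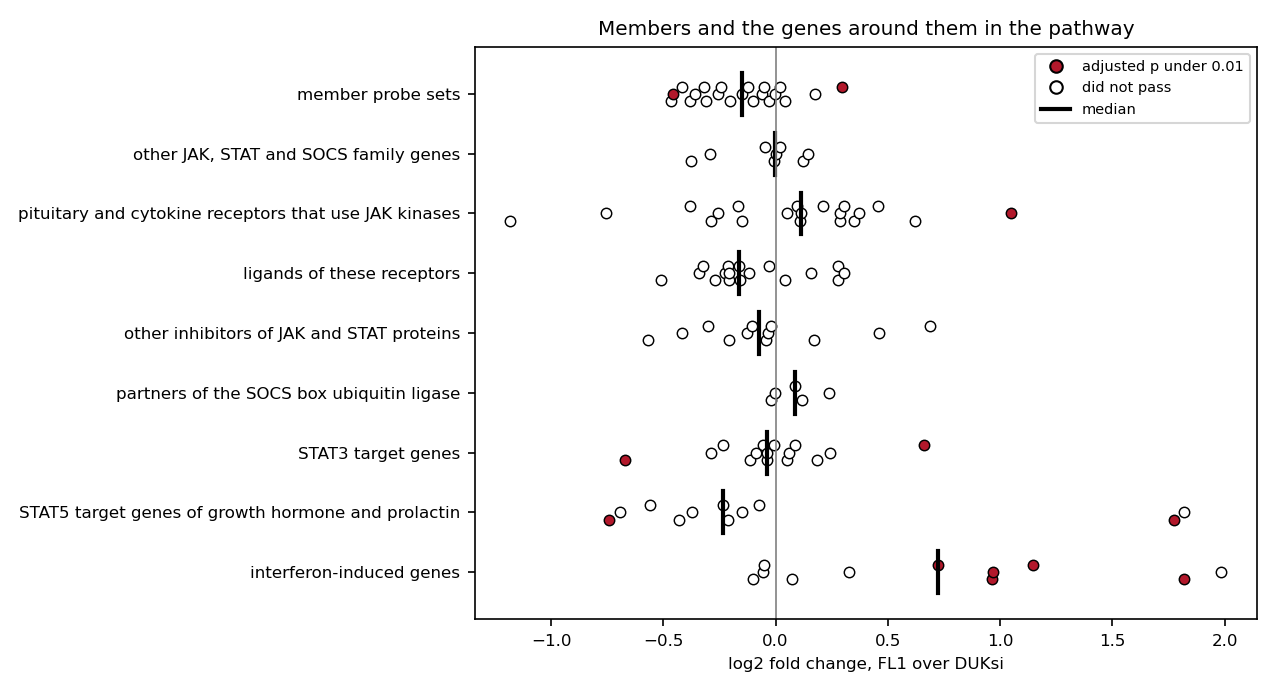
Log2 fold change of FL1 over DUKsi for the 21 probe sets of the 10 genes (top) and for the measured genes of 8 pathway lists, with 1 point per probe set. Filled points passed at an adjusted p under 0.01 and thick bars are medians, which run from -0.23 for Stat5 targets to 0.72 for interferon-induced genes.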

How the data were processed

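Ovary RNA pools of FL1 and DUKsi (6 pools a line, 2 arrays a pool, 24 arrays) had been hybridized to Affymetrix mouse expression arrays. The deposited intensity values are linear MAS5 signals, which the authors computed and brought to 1 common mean per array. The trimmed mean of each array was 500.1. No array repeated another. Each pool of animals is 1 replicate, and 6 a line limit the precision. Columns of the authors' own comparisons were not used.

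The signals of a pool's arrays were averaged, and log2 values were compared between the lines in R 4.3.3 with limma 3.58.1 (empirical Bayes with a mean-variance trend). The 64 control probe sets were left out, and p-values were adjusted over 22626 probe sets. The methods' t-test was replaced by limma and kept as an alternative. Probe sets were named from the platform annotation, in which 20380 have 1 gene, 691 several and 1555 none. The procedure was tested on simulated signals.

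All probe sets of the 10 genes were named. On each list up to 3 genes with the largest change among those that passed were named, or the 2 brightest where none did, and genes outside this rule are marked in the text. The 10 genes and the lists were chosen with earlier results of these data known, and list genes without a probe set of their own were not analysed here. Pools with 1 number in both lines did not deviate together, with correlations from -0.26 to 0.17.

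Alternatives were each array of a pool alone, the mean of log2 values, a fit to 24 arrays with pools as random blocks, quantile normalization, equal array medians, an added constant of 48.6 (the value below which 20% of signals lie), the dimmest 40% left out, limma without the trend or robust, the methods' t-test, the pool number as a block, the actin ratio as a covariate, other thresholds, and pools left out.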

Additional observations from a re-analysis of the deposited data

Results flagged for a closer look

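In 44 groups of 6 pools (each probe set of the 10 genes and the actin ratio, in each line) a value far from the other 5 was looked for with Dixon's ratio, which by chance alone picks about 1 group in 20. Socs3 1416576_at was far above the other pools in DUKsi pool 4, at 730.85, against 548 for the next pool. Socs5 1423350_at was also high in DUKsi pool 4, at 230.9, against 183 for the next pool. Stat3 1426587_a_at was high in FL1 pool 2, at 1891.4, against 1531 for the next pool. The beta-actin 3′ to 5′ ratio was high in FL1 pool 3, at 2.45, against 1.74 for the next pool. No explanation of these values was tested.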

How the results depend on the processing

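Of the main counts, 2 probe sets of the 10 genes, 10 pathway genes and 764 of all probe sets passed. On the second arrays alone 0 of the 10 genes' probe sets and 468 of all passed, at an adjusted p under 0.01. Of the 10 genes' probe sets 1 passed, Socs2 1449109_at, in limma without the trend, in robust limma, and with the pool number as a block, and 1 to 2 passed with single pools left out. With the fold of 1.5 added 0 passed. With quantile normalization, and with the actin ratio as a covariate, the 2 that passed were both probe sets of Socs2. All probe sets past the test numbered 1278 with the pool as a random block, 1218 with the actin ratio as a covariate, 1564 at an adjusted p under 0.05, and 507 by the methods' t-test, which passed 4 pathway genes. Under scaling to the same median the median of all fold changes was 0.02, and 634 probe sets rose and 229 fell, against 413 and 351. The block on the pool number changed no call of the 10 genes other than Stat3 1460700_at, at 0.30 (adjusted p = 0.0446 from limma); the numbers do not pair the pools. Over the alternatives, Socs2 1449109_at passed in 25 of 26 fits, Socs2 1418507_s_at in 6 and Stat3 1460700_at in 8, with the same sign in each. Ptgfr lost its call without FL1 pool 2, 4 or 6 or DUKsi pool 2 (adjusted p from 0.0102 to 0.0111).

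The following fold changes, none past the test in any fit, changed sign. Most were near 0 as reported, but Socs1 was at -0.36, Stat5a 1450259_a_at at -0.31 and Jak2 1421065_at at -0.20. With the actin ratio as a covariate Cish was at -0.19, Jak1 1433805_at at 0.041, Jak2 1421065_at at 0.0079, Stat5a 1450259_a_at at 0.14, Stat5b 1422102_a_at at 0.30, Stat6 at -0.062 and Tyk2 at -0.048. On the first arrays Socs1 was at 0.27, Socs5 1423349_at at 0.039, Stat3 1424272_at at 0.024 and Stat5a 1421469_a_at at -0.040. On the second arrays Eloc was at 0.038, Jak2 1421066_at at 0.18 and Tyk2 at -0.033. With the same median Eloc was at 0.068, Jak1 1433803_at at 0.029, Jak2 1421066_at at 0.084, Socs5 1423349_at at 0.036 and Stat3 1424272_at at 0.062. With quantile normalization Jak2 1421066_at was at 0.016, Stat3 1424272_at at 0.060 and Stat5b 1422102_a_at at 0.0037. Jak2 1421066_at was at 0.0072 with the random block and with the mean of log2 values. By the methods' t-test Stat3 1424272_at was at 0.049 and Tyk2 at -0.0054, and with the added constant Tyk2 was at -6.6e-05. Without FL1 pool 3 and DUKsi pool 4 Stat6 was at -0.010. With single pools left out, Cish ran from -0.062 to 0.15, Jak2 1421066_at from -0.054 to 0.039, Stat3 1424272_at from -0.17 to 0.13, Stat5a 1421469_a_at from -0.014 to 0.11, Stat5b 1422102_a_at from -0.20 to 0.049, Stat6 from -0.012 to 0.058, Tyk2 from -0.042 to 0.030 and Eloc from -0.053 to 0.0031. The cause was not tested.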
